A study of Mus musculus with 59 samples.

Results

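The 8 genes described here are the myogenic regulatory factors Myod1, Myog, Myf5 and Myf6, the stem cell factor Pax7, and the myocyte enhancer factors Mef2a, Mef2c and Mef2d. They were taken by symbol, 8 of the 47643 genes in the deposited expression table, and all 8 were found. Expression was measured by RNA-seq, and is given as TPM (a level scaled for transcript length and for the library total), in 59 skeletal muscle libraries of 3 muscles. All mice were female NCI Ath/nude animals, a strain without a thymus that accepts human grafts, were 4 months old, and carried a patient-derived melanoma xenograft. No group was free of a tumor. A cachectic xenograft, which wastes the muscles of its host, was set against a non-cachectic one, which leaves them. Each was a single tumor stock, so that the cachexia and any other difference between these stocks cannot be told apart. The diaphragm groups received intraperitoneal injections, either of rFibcd1, the recombinant form of a muscle-secreted protein, or of a mock solution of albumin in PBS. These groups were non-cachectic mock (n = 9), cachectic mock (n = 10), non-cachectic rFibcd1 (n = 10) and cachectic rFibcd1 (n = 10). The limb muscles were the tibialis anterior, a fast muscle, and the soleus, a slow one, each in 5 cachectic and 5 non-cachectic samples for which the labels give no rFibcd1 treatment. The questions were how these factors differ between muscles, between the melanomas, and with rFibcd1.

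Myod1, Myog, Myf5 and Myf6 encode basic helix-loop-helix proteins that pair with E proteins, bind short DNA sites called E-boxes and switch on muscle genes. Myf5 and Myod1 commit cells to the muscle lineage, Myog drives their differentiation, and Myf6 (also called Mrf4) is the member made most by adult myofibers. Pax7 marks satellite cells, the stem cells beneath the sheath of each myofiber, and Myf5 is made largely by the same cells in adult muscle. Myod1 and Myog are also made by myofibers, Myod1 more in fast fibers and Myog more in slow fibers, and Myog is known to rise when a muscle loses its nerve. The MEF2 proteins bind AT-rich sites together with the myogenic factors, and class IIa histone deacetylases hold them in check.

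The genes lie on 6 chromosomes of the mouse genome (GRCm38, GENCODE M21). Myod1 spans chr7:46376474-46379099 on the plus strand, and Myog spans chr1:134289989-134292548 on the plus strand. Myf5 (chr10:107482908-107486134) and Myf6 (chr10:107492853-107494737) are neighbours, both on the minus strand, with 6718 bases between them. Pax7 spans chr4:139737062-139833528 on the minus strand. Mef2a lies at chr7:67231163-67372858 on the minus strand, Mef2c at chr13:83504034-83667080 on the plus strand and Mef2d at chr3:88142372-88172086 on the plus strand.

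The 4 myogenic regulatory factors are related genes, and their coding sequences are most alike within a stretch of the first coding exon. The 45-base window in which the most positions are shared is shown because it bears on whether reads could be assigned to the wrong member. Capitals mark the 33 positions at which all 4 genes have the same base.
Myod1, chr7:46377087-46377131, plus strand: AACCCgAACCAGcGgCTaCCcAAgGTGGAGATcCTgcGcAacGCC
Myog, chr1:134290386-134290430, plus strand: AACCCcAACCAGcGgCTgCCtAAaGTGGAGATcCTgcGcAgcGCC
Myf5, chr10:107485551-107485595, minus strand: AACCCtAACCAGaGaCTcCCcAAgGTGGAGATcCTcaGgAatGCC
Myf6, chr10:107494294-107494338, minus strand: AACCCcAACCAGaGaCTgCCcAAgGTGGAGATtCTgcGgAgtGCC
Over this window Myog matched Myod1 at 40 of 45 bases, and Myf5 and Myf6 each matched it at 37. The longest identical run between transcripts of any pair of these 4 genes was 12 to 26 bases, and between any pair of the 3 MEF2 genes 16 to 28 bases, which is shorter than the reads the study describes.

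Of 8 genes, 6 had a promoter window in the RefSeq table used here (GRCm38.p6), Myog among them. The 150 bases before the RefSeq start of Myog are shown with their E-boxes (CANNTG) in capitals, since Myog is the member whose promoter is the classic target of these factors.
Myog promoter, chr1:134289854-134290003, plus strand: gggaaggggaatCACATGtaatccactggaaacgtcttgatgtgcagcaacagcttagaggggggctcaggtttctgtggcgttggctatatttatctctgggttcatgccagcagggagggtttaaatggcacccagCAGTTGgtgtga
The E-boxes began 138 and 12 bases before the RefSeq start. That start, at 134290004, lies 15 bases inside the gene span of GENCODE given above, so that the last 15 bases shown, with the second E-box, fall within that span. Such a match is common, since 72.3% of 32851 promoter windows of the table, which run from 250 bases before to 50 after a start, hold at least 1 E-box on these letters, which read the same on both strands. A MEF2 consensus match on either strand was held by 3.19% of the windows.

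The libraries were described before the genes were compared. Sequencing depth is unknown because every library sums to the same total of TPM, and 16436 to 19456 genes were above 0 in a library. The muscles matched their labels, with Myh4 (the fastest myosin) at 7593 TPM or more in every tibialis anterior library and Myh7 (the slow myosin) at 4.83 TPM or less there and at 4288 TPM or more in every soleus library. One cachectic soleus library, numbered 7, had 4989 TPM of Myh4, a fast-fiber level. The cachectic tibialis anterior library numbered 8 stood apart in several genes named below. Mitochondrial transcripts made up less of the total with cachexia (medians of 38.7% against 47.3% in mock diaphragm, 40.6% against 47.7% in tibialis anterior and 30.6% against 41.0% in soleus), and the median gene was shifted upwards by 0.20, 0.41 and 0.09 on the log2 scale. Fold changes below are therefore also given after median-ratio scaling, which sets the median gene near 0, where that changes a call or a direction. Libraries also split by Pcna-ps2, a pseudogene that was either under 1 TPM (low state) or clearly above it (high state). All 10 limb libraries of the cachectic mice were in the high state and all 10 of the non-cachectic mice in the low state, so that in tibialis anterior and soleus the state and the melanoma cannot be told apart. In mock diaphragm, 9 of 10 cachectic and 3 of 9 non-cachectic libraries were in the high state.

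By median TPM, Mef2c, Mef2d and Myf6 were the most abundant members in each non-cachectic group. In non-cachectic mock diaphragm the medians were 97.4 TPM for Mef2c, 76.3 for Mef2d, 61.3 for Myf6 and 21.0 for Mef2a, followed by 12.01 for Myog, 8.94 for Myod1, 2.09 for Myf5 and 1.51 for Pax7. Myf6 made up 74.0% ± 4.24 (SD, n = 9) of the summed TPM of the 4 myogenic regulatory factors in that group. The share was nearly the same in non-cachectic tibialis anterior (73.9% ± 5.21, SD, n = 5) and non-cachectic soleus (74.4% ± 3.99, SD, n = 5).

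**Figure D1:**
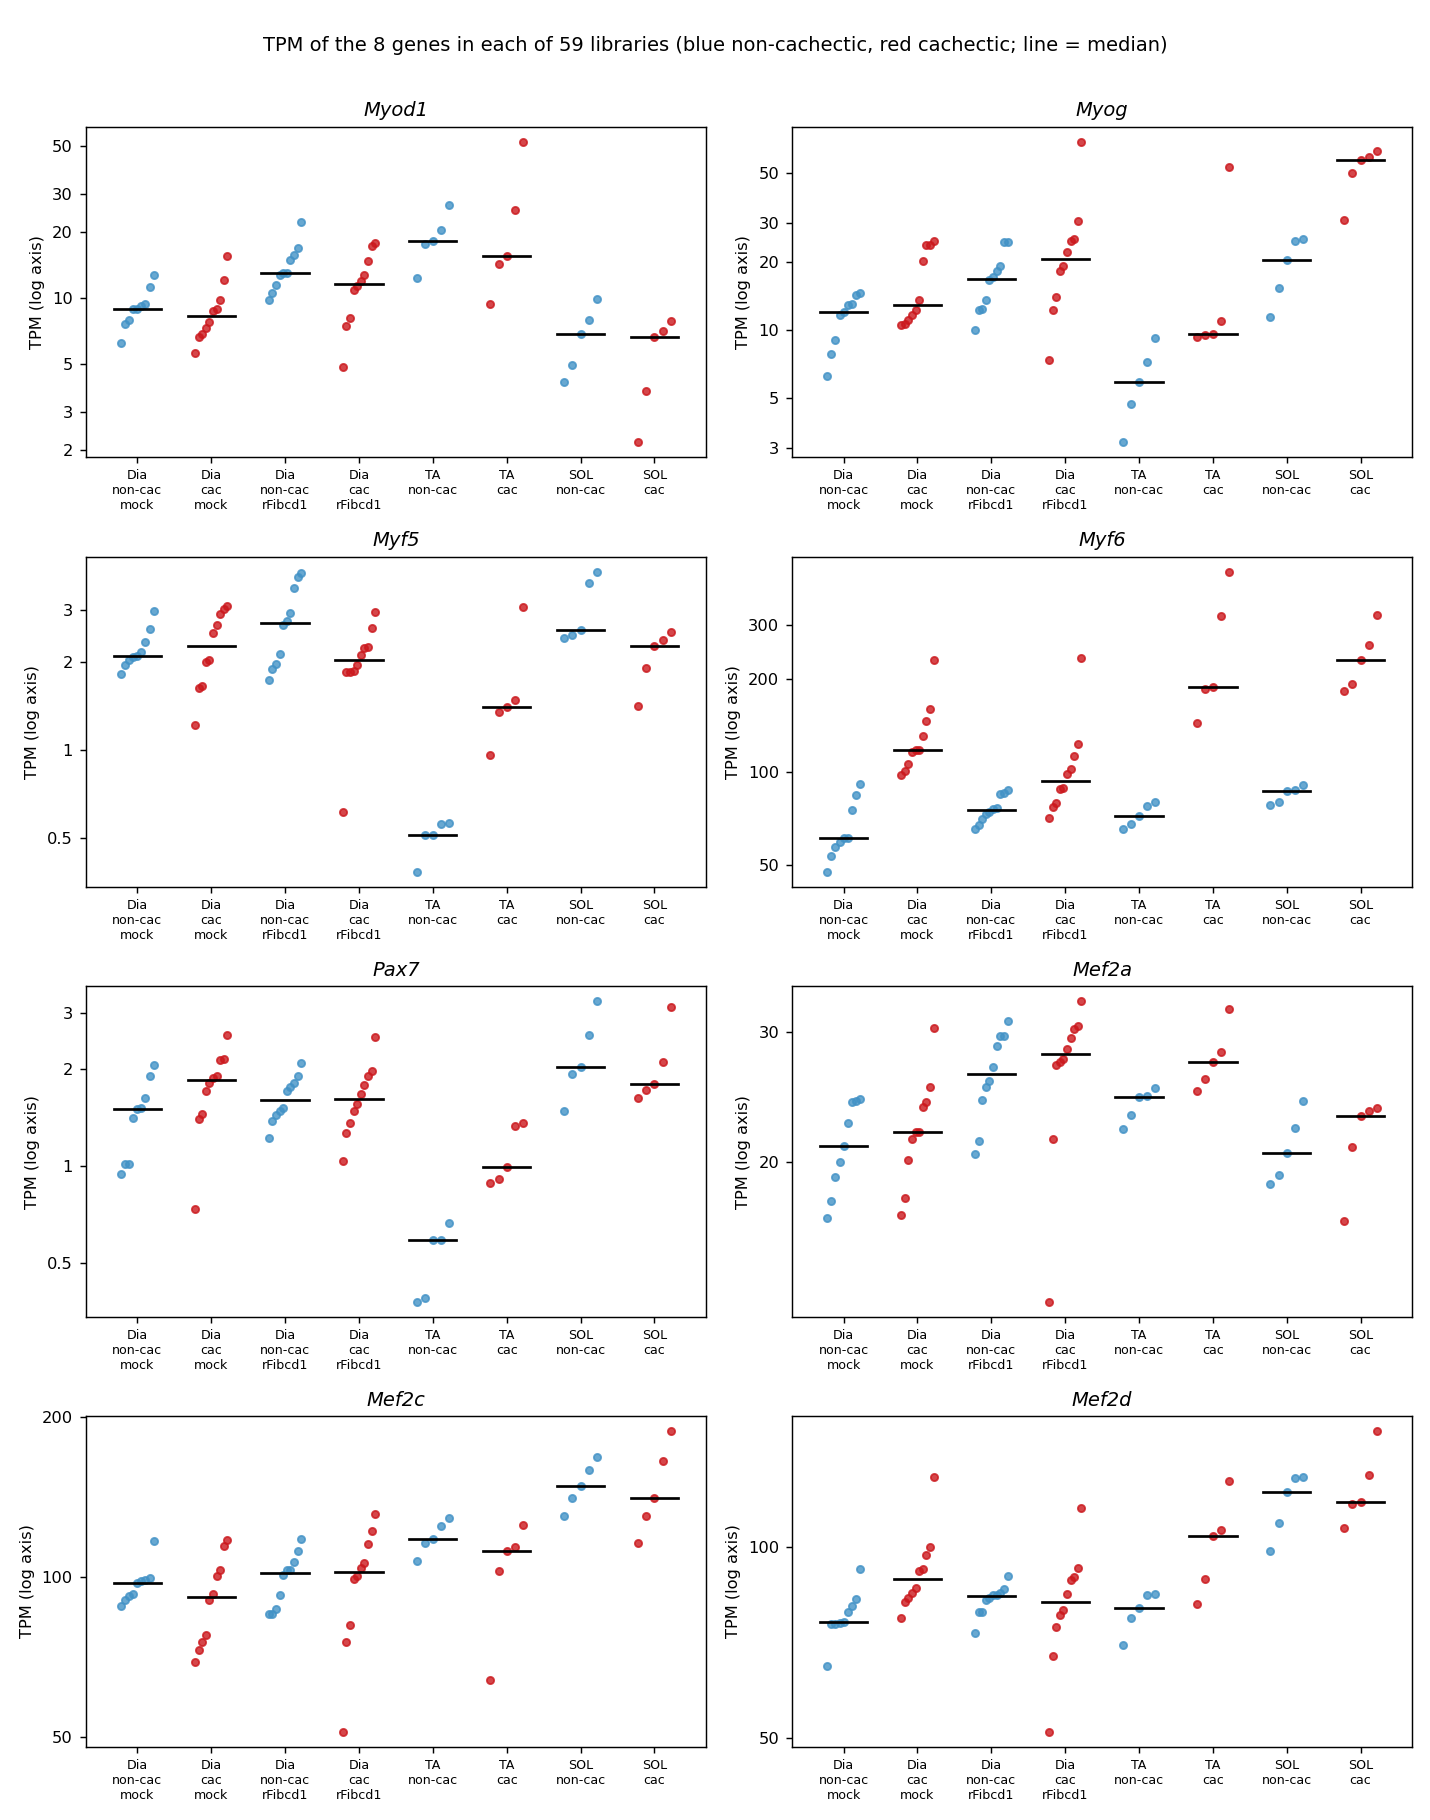
TPM (log axis) of each of the 8 genes in each of 59 libraries, in 8 groups, with points sorted by value and a black line at the group median; Dia is diaphragm, TA tibialis anterior, SOL soleus, cac cachectic and non-cac non-cachectic. Myf6 is higher in red than in blue in every muscle, with no overlap in mock diaphragm, tibialis anterior and soleus.

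Among the non-cachectic groups, tibialis anterior differed from soleus most in Myog, Myf5, Myod1 and Pax7. Between tibialis anterior and soleus, 6 of the 8 genes passed the test, against 69.5% of all genes tested, so that the count itself is near the background. Myod1 was the only one of the 6 that was higher in tibialis anterior, and Myog, Myf5, Pax7, Mef2c and Mef2d were lower. For diaphragm against tibialis anterior, 5 of 8 passed (72.5% of all genes), and for diaphragm against soleus 3 of 8 (38.8%). The median gene differed by -0.47 (tibialis anterior over soleus), 0.44 (diaphragm over tibialis anterior) and -0.04 (diaphragm over soleus) on the log2 scale, and these shifts bear on each of the differences below.

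Myod1, the factor of fast fibers, was at 12.4, 17.7, 18.2, 20.6 and 26.8 TPM in non-cachectic tibialis anterior and at 4.10, 4.94, 6.80, 7.95 and 9.90 TPM in soleus. The lowest tibialis anterior library was above the highest soleus library. The log2 difference was 1.39 ± 0.30 (SE, adjusted p = 0.000141). Mock diaphragm lay between them, at 6.19 to 12.8 TPM with a median of 8.94, and was lower than tibialis anterior by a log2 difference of -0.97 ± 0.27 (SE, adjusted p = 0.00154). Its difference from soleus, 0.42 with a 95% interval from -0.12 to 0.96, did not pass (adjusted p = 0.213).

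Myog, the differentiation factor that is higher in slow fibers, had the reverse order. It was at 3.19, 4.70, 5.90, 7.18 and 9.24 TPM in non-cachectic tibialis anterior and at 11.4, 15.4, 20.5, 24.96 and 25.5 TPM in soleus, with no overlap. The log2 difference of tibialis anterior from soleus was -1.55 ± 0.34 (SE, adjusted p = 0.000148). Diaphragm again lay between them, at 6.23 to 14.6 TPM. It was higher than tibialis anterior by 0.83 ± 0.30 (SE, adjusted p = 0.0136), which after median-ratio scaling was 0.32 and no longer passed (adjusted p = 0.264). Without the tibialis anterior library numbered 61 it was 0.66 (adjusted p = 0.065). The difference of diaphragm from soleus was -0.73 (adjusted p = 0.051) and passed after median-ratio scaling (-0.68, adjusted p = 0.0307), with a pseudocount of 0.1 (-0.77, adjusted p = 0.0489) and without any 1 of 8 libraries (adjusted p from 0.0106 to 0.0494). These were the diaphragm ones numbered 8, 32, 63 and 65, tibialis anterior 8 and 61, and soleus 7 and 61. The difference also passed with the column number as a block, as given in the closing section.

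These opposite orders set non-cachectic tibialis anterior apart from soleus and diaphragm, while soleus and diaphragm overlapped. Myod1 was above Myog in 5 of 5 non-cachectic tibialis anterior libraries, in 0 of 5 soleus libraries and in 2 of 9 mock diaphragm libraries. The log2 difference of Myod1 from Myog within a library, which no scaling of the library moves by much, was 1.54 ± 0.631 (SD, n = 5) in tibialis anterior, -1.41 ± 0.784 (SD, n = 5) in soleus and -0.26 ± 0.456 (SD, n = 9) in diaphragm. Its ranges were 0.96 to 2.29, -2.38 to -0.18 and -0.81 to 0.53 in the same order.

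**Figure D2:**
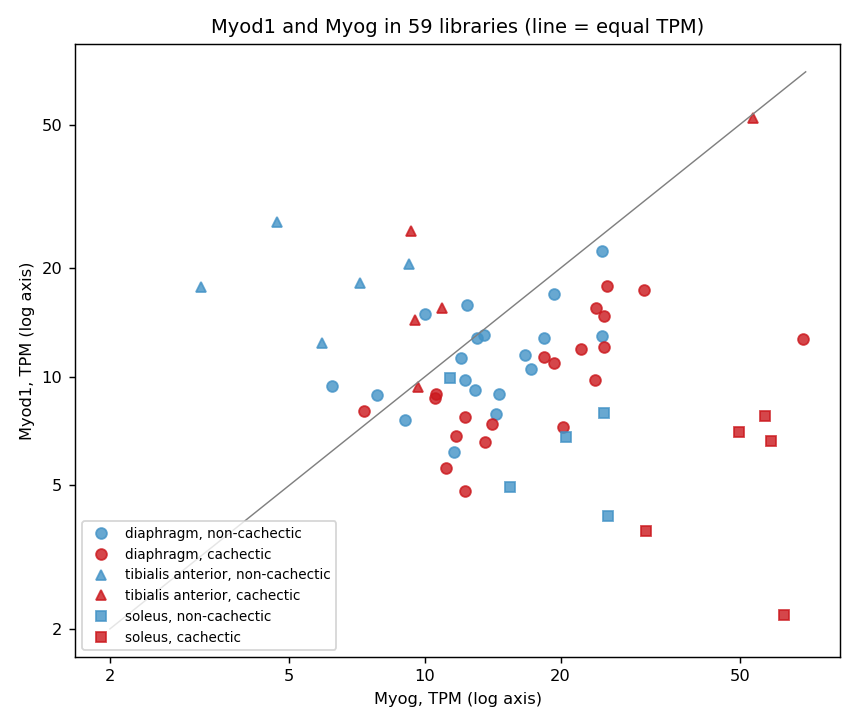
Myod1 against Myog in TPM (both axes logarithmic), 1 point per library, with the shape giving the muscle, the color the melanoma, and a line at equal TPM; diaphragm points hold both mock and rFibcd1 libraries. All 10 soleus libraries lie below the line and 8 of 10 tibialis anterior libraries above it.

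Myf5 and Pax7, the satellite cell members, were low and shared 1 order. Myf5 was at 0.382, 0.508, 0.512, 0.555 and 0.561 TPM in non-cachectic tibialis anterior, and at 2.42, 2.47, 2.58, 3.73 and 4.08 TPM in soleus. Pax7 was at 0.378, 0.388, 0.587, 0.590 and 0.665 TPM in tibialis anterior, and at 1.48, 1.93, 2.03, 2.56 and 3.25 TPM in soleus. For both genes every soleus library and every mock diaphragm library was above every tibialis anterior library of these non-cachectic groups. The log2 differences of tibialis anterior from soleus were -1.41 ± 0.16 for Myf5 (SE, adjusted p = 2.86e-09) and -1.07 ± 0.15 for Pax7 (SE, adjusted p = 2.88e-07), on a scale with 1 added to TPM that understates changes at such low levels. Every non-cachectic tibialis anterior library was under 1 TPM in both genes, which met the filter of this fit through other groups. Diaphragm exceeded tibialis anterior by 1.10 ± 0.14 in Myf5 (SE, adjusted p = 2.51e-08) and by 0.67 ± 0.14 in Pax7 (SE, adjusted p = 4.86e-05). Diaphragm was lower than soleus in Pax7 (-0.40 ± 0.14, SE, adjusted p = 0.0179), a call that was lost without the soleus library numbered 61 (-0.30, adjusted p = 0.0932) or numbered 63 (-0.36, adjusted p = 0.0556). In Myf5 the difference of -0.32 from soleus did not pass (adjusted p = 0.0734), except without the diaphragm library numbered 65 (-0.36, adjusted p = 0.0474) or tibialis anterior 8 (-0.32, adjusted p = 0.037). In whole muscle, fewer satellite cells and less RNA per cell cannot be told apart. Summed markers of other cells also differed between tibialis anterior, soleus and mock diaphragm. Fibroblast markers were at 157 to 271, 580 to 772 and 728 to 1179 TPM, and macrophage markers at 2.81 to 5.74, 12.1 to 18.3 and 22.8 to 50.6 TPM. B cell markers had another order, at 42.3 to 198, 4.05 to 7.76 and 17.3 to 609 TPM. Their part in the result was not tested.

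Between tibialis anterior and soleus, the differences of Mef2c and Mef2d depended on scaling. Mef2c was at 107 to 129 TPM in non-cachectic tibialis anterior and at 130.4 to 168 TPM in soleus, and Mef2d at 70.2 to 84.3 and 98.7 to 129 TPM. In TPM both were lower in tibialis anterior, by -0.32 ± 0.14 for Mef2c (SE, adjusted p = 0.0452) and by -0.56 ± 0.11 for Mef2d (SE, adjusted p = 6.93e-05). After median-ratio scaling both signs turned, to 0.30 (adjusted p = 0.187) and 0.06 (adjusted p = 0.602). The call of Mef2c was also lost without the filter (adjusted p = 0.0683) and without any 1 of 7 libraries, tibialis anterior 61, 62, 64 and 65 and soleus 62, 64 and 65 (adjusted p from 0.0519 to 0.108). In TPM, limma without a block called neither Mef2a nor Myf6 in any pair of muscles. Myf6 was at 65.5 to 79.8 TPM in tibialis anterior, 78.4 to 90.6 in soleus and 47.7 to 91.5 in diaphragm. Mef2a was at 22.2 to 25.2, 18.7 to 24.2 and 16.8 to 24.4 TPM in the same order. After median-ratio scaling Mef2a was higher in tibialis anterior than in soleus (0.80, adjusted p = 2.28e-08), and Myf6, Mef2a and Mef2d were lower in diaphragm than in tibialis anterior (-0.74, -0.75 and -0.60, adjusted p = 0.000139, 2.93e-09 and 9.39e-08). For tibialis anterior over soleus, Myf6 also turned from below 0 in TPM to above 0 after that scaling.

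Soleus was above diaphragm in both Mef2c (-0.61 ± 0.13 for diaphragm over soleus, SE, adjusted p = 0.000212) and Mef2d (-0.58 ± 0.10, SE, adjusted p = 2.04e-05). No diaphragm library of the non-cachectic mock group reached the lowest soleus library in either gene. For these 2 differences median-ratio scaling left the direction and the call (-0.56 and -0.53). In diaphragm over tibialis anterior, Mef2c was at -0.29 (adjusted p = 0.0387) and was lost without the filter (adjusted p = 0.056) and without any 1 of 8 libraries, diaphragm 61, 64, 66 and 67 and tibialis anterior 61, 62, 63 and 64 (adjusted p from 0.0525 to 0.0911), while after median-ratio scaling it was -0.87 (adjusted p = 3.02e-05).

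**Figure D3:**
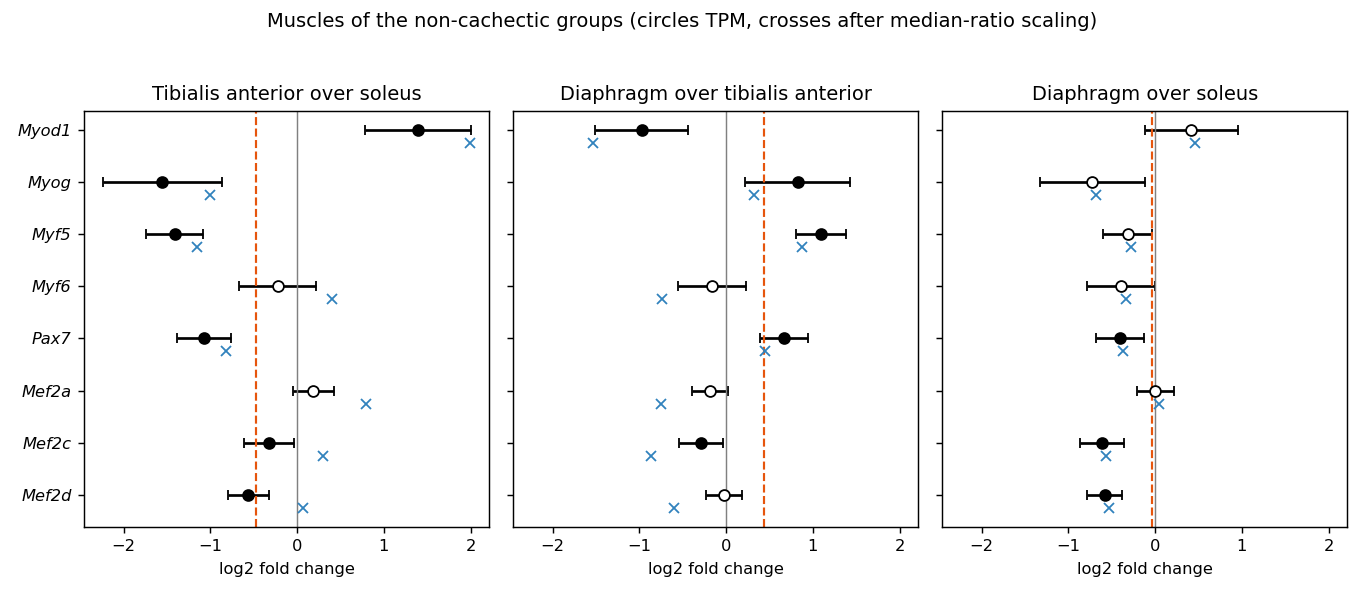
Log2 fold changes of the 8 genes between muscles of the non-cachectic groups (mock for diaphragm), with 95% intervals, filled circles for an adjusted p under 0.05, crosses for the value after median-ratio scaling and a dashed line at the median of all genes. Myod1 and Myog lie on opposite sides of 0, and Myf6, Mef2c and Mef2d change side between circle and cross for tibialis anterior over soleus.

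The partners and regulators of these factors were described from lists. Between tibialis anterior and soleus, 63.9% of all genes were called lower in tibialis anterior and 5.63% higher, and the counts of each list stand against these shares. For tibialis anterior over soleus, 12 of 13 satellite cell genes tested were lower (list median -1.07, against -0.47 over all genes), among them Ncam1 (-2.31), Itga7 (-1.58) and Chodl (-1.42). After median-ratio scaling 7 were lower and 0 higher. Of 10 E proteins and inhibitors of helix-loop-helix factors, 8 were lower and 0 higher (list median -0.84), led by Id1 (-1.36), Twist1 (-1.04) and Id3 (-1.01). After median-ratio scaling 5 were lower and 2 higher. The acetylcholine receptor and denervation genes had 4 of 9 lower, led by Sln (-7.31), a regulator of the calcium pump (list median -0.12), with Chrna1 (-2.24) and Musk (-2.08), both parts of the nerve-muscle contact, and 0 higher, but 4 lower and 4 higher after median-ratio scaling.

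The other lists had genes called in both directions, against the same 63.9% of all genes called lower and 5.63% higher. Of 12 MEF2 cofactors and repressors, 7 were lower and 1 higher in tibialis anterior than in soleus, with Hdac9 (-1.57), a class IIa deacetylase, first by size, and 4 were lower and 2 higher after median-ratio scaling. Of 12 MEF2 target genes, 5 were lower and 3 higher, with Myoz2, a protein of slow fibers, at -4.48 and Myoz1, its relative in fast fibers, at 2.62. After median-ratio scaling 2 targets were lower and 8 higher. Of 8 sine oculis and Eya factors, which act upstream of the myogenic factors, 5 were lower and 2 higher, with Eya4 at 2.02 and Six5 at -1.53, and 2 were lower and 3 higher after median-ratio scaling. Of 8 genes of new myofibers, 5 were lower and 2 higher, with Myh3, the embryonic myosin, at -2.87, and 4 were lower and 2 higher after median-ratio scaling.

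For diaphragm over tibialis anterior, 11 of 13 satellite cell genes were higher and 0 lower (list median 1.04, against 0.44 over all genes), against 64% of all genes called higher and 8.52% lower, led by Pax3 (1.62), the relative of Pax7. After median-ratio scaling 9 were higher and 2 lower. For diaphragm over soleus, 2 of 13 satellite cell genes were higher and 4 lower (list median -0.26, all genes -0.04), against 16.8% of all genes called higher and 22.1% lower, with Pax3 at 1.79 and Ncam1 at -1.42.

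With the cachectic melanoma, Myf6 was higher in all 3 muscles without rFibcd1 and Myog in both limb muscles. In mock diaphragm Myf6 was the only one of the 8 genes that passed, against 33.5% of all genes called (30.9% higher). In tibialis anterior 3 of 6 genes tested were higher (60.2% of all genes called, 56.4% higher), and in soleus 2 of 8 (25.1% called, 17.5% higher). In mock diaphragm the share called higher was below that of all genes. In tibialis anterior it was near that of all genes, and Myf5 and Pax7, under the filter there, are not in the count. The members are described gene by gene.

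Myf6, the main myogenic factor of adult fibers, was at 65.5, 68.0, 72.2, 77.7 and 79.8 TPM in non-cachectic tibialis anterior and at 145, 186, 188, 321 and 446 TPM in the cachectic group. In soleus it was at 78.4, 80.2, 87.1, 87.4 and 90.6 TPM against 184, 193, 230.4, 259 and 323 TPM. In mock diaphragm the non-cachectic libraries ran from 47.7 to 91.5 TPM (median 61.3) and the cachectic ones from 98.3 to 231 TPM (median 118). In each muscle every cachectic library was above every non-cachectic library. The log2 fold changes were 1.69 ± 0.25 in tibialis anterior (SE, adjusted p = 0.000747), 1.45 ± 0.14 in soleus (SE, adjusted p = 6.25e-05) and 0.99 ± 0.16 in mock diaphragm (SE, adjusted p = 4e-05). All 3 calls held after median-ratio scaling, at 1.19, 1.35 and 0.76. Without the tibialis anterior library numbered 8 the change there was 1.46 (adjusted p = 0.000114). The melanoma effect on Myf6 in tibialis anterior and that in soleus differed by 0.24 with a 95% interval from -0.39 to 0.87 (adjusted p = 0.586). The effect in diaphragm was lower than that in tibialis anterior by a difference of -0.70 that did not pass (adjusted p = 0.11), though it did without the tibialis anterior library numbered 6 (-0.88, adjusted p = 0.0314).

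In the diaphragm Myf6 also differed by the Pcna-ps2 state within the non-cachectic mock group, where the 3 high-state libraries were at 75.5 to 91.5 TPM and the 6 low-state ones at 47.7 to 61.4 TPM. The 9 cachectic high-state libraries were at 98.3 to 231 TPM and the 1 cachectic low-state library at 101 TPM. Both were above all non-cachectic libraries of either state. In the non-cachectic rFibcd1 group the states overlapped, with 4 low-state libraries at 67.6 to 76.5 TPM and 6 high-state ones at 65.4 to 87.8 TPM. With the state as a term the fold change in mock diaphragm was 0.82 (adjusted p = 0.00123). Among high-state libraries alone it was 0.65 and did not pass (adjusted p = 0.102).

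**Figure D4:**
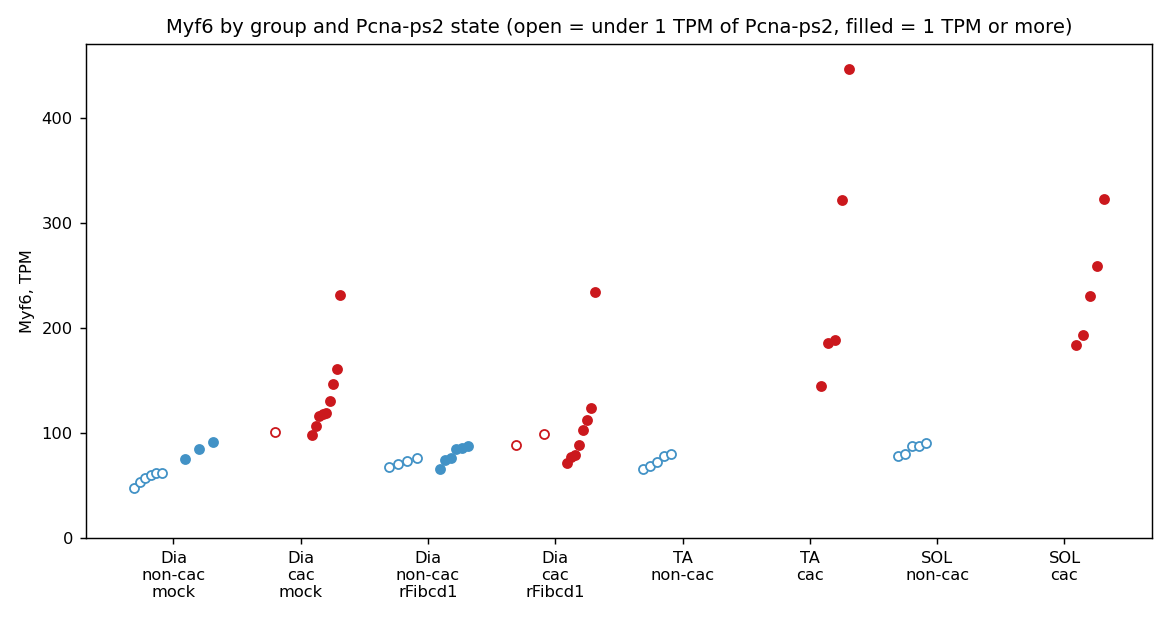
Myf6 in TPM (linear axis from 0) by group, 1 point per library sorted by value, open for libraries with under 1 TPM of Pcna-ps2 and filled for the others, blue non-cachectic and red cachectic. In mock diaphragm the filled blue points (75.5 to 91.5 TPM) lie above the open blue ones (47.7 to 61.4 TPM) and below all red ones, and both limb muscles have only open blue and filled red points.

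Myog was at 9.33, 9.51, 9.65, 10.9 and 53.4 TPM in cachectic tibialis anterior, against 3.19 to 9.24 TPM without cachexia. The groups did not overlap, but 4 of the 5 cachectic libraries lay just above the highest non-cachectic one. The log2 fold change was 1.15 ± 0.43 (SE, adjusted p = 0.0352), and it fell to 0.69 without the library numbered 8, at 53.4 TPM, while still passing (adjusted p = 0.016). It did not pass without any 1 of the 4 non-cachectic libraries numbered 61, 62, 63 or 64 (0.98, 1.16, 1.22 and 1.09, adjusted p = 0.0817, 0.0597, 0.0515 and 0.0686), nor after median-ratio scaling (0.70, adjusted p = 0.131) or without the filter on low values (adjusted p = 0.0745). In soleus Myog was at 11.4 to 25.5 TPM without cachexia and at 30.9, 49.7, 57.0, 58.7 and 62.8 TPM with it. The fold change was 1.38 ± 0.24 (SE, adjusted p = 0.00228), and 1.29 after median-ratio scaling (adjusted p = 0.00297). The lowest cachectic value belonged to the library numbered 7 with the fast-fiber level of Myh4, and without it the change was 1.55 (adjusted p = 0.00118).

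Some genes of the circadian clock were called in the limb muscle comparisons in which Myf6 and Myog were called. In tibialis anterior 3 of 11 clock genes were higher and 2 lower, with Arntl at 1.56 and Dbp at -1.09 (1 and 4 after median-ratio scaling), against 56.4% of all genes called higher and 3.78% lower. In soleus 3 of 11 were higher and 4 lower, with Arntl at 0.98 and Dbp at -1.26, and the counts were the same after median-ratio scaling, against 17.5% of all genes called higher and 7.54% lower. In mock diaphragm 1 of 12 was higher (Cry1, 0.60) and 1 lower (Nr1d1, -1.05), against 30.9% and 2.67%. The part of the clock in the limb muscle results was not tested.

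In mock diaphragm Myog did not pass (0.45 with a 95% interval from -0.05 to 0.96, adjusted p = 0.152). It was at 6.23 to 14.6 TPM without cachexia and at 10.53 to 24.95 TPM with it, and the groups overlapped. Its effect in diaphragm was below that in soleus by -0.92, with a 95% interval from -1.77 to -0.08 that is not adjusted (adjusted p = 0.267).

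Myod1, in contrast, did not pass in any muscle. It was at 9.39 to 52.2 TPM in cachectic tibialis anterior against 12.4 to 26.8 TPM, with a fold change of 0.07 that became -0.27 without the library numbered 8 and -0.41 after median-ratio scaling. In soleus it was at 2.19 to 7.80 TPM against 4.10 to 9.90 TPM (fold change -0.30, 95% interval from -0.94 to 0.34), and in mock diaphragm at 5.59 to 15.5 TPM against 6.19 to 12.8 TPM (-0.06, 95% interval from -0.42 to 0.30). The log2 difference of Myod1 from Myog within a library was lower in the cachectic than in the non-cachectic group of each muscle. It was 0.46 ± 0.569 (SD, n = 5) in cachectic tibialis anterior, -3.08 ± 0.702 (SD, n = 5) in cachectic soleus and -0.77 ± 0.375 (SD, n = 10) in cachectic mock diaphragm, next to the non-cachectic values of 1.54, -1.41 and -0.26 given above. This measure was not tested. Every cachectic soleus library was below every non-cachectic one in it, with a highest value of -2.66 against a lowest of -2.38.

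Myf5 and Pax7 were under the filter on low values in the tibialis anterior fit, which asks for 1 TPM in at least 5 libraries, and were tested singly there. Myf5 was at 0.957, 1.35, 1.40, 1.48 and 3.07 TPM in the cachectic group, next to 0.382 to 0.561 TPM. Pax7 was at 0.883, 0.913, 0.994, 1.33 and 1.36 TPM, next to 0.378 to 0.665 TPM. All 5 cachectic libraries were above all 5 non-cachectic ones in both genes. Over all genes that passed the filter there, 56.4% were called higher and the median gene rose by 0.41, so that the Pax7 difference below is near the general shift. The log2 differences were 0.77 and 0.46 (exact two-sided permutation p = 0.00794 for each of these 2 tests, the smallest that 5 against 5 can give). In a fit without the filter the adjusted p-values were 0.0104 and 0.0079. In soleus neither passed, at -0.38 (95% interval from -0.71 to -0.05, adjusted p = 0.0821) for Myf5, which was lower after median-ratio scaling (-0.45, adjusted p = 0.0257), and -0.07 (adjusted p = 0.774) for Pax7. In mock diaphragm the changes were 0.00 (adjusted p = 0.998) and 0.18 (adjusted p = 0.199).

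In the fit of 3 muscles Myf5 met the filter mainly through diaphragm and soleus. There the melanoma effect on Myf5 differed between muscles when that difference was tested. It was higher in tibialis anterior than in soleus by 1.15 ± 0.23 (SE, adjusted p = 0.000893), against 20.4% of all genes called in that contrast, and limma without a block called no other of the 8 genes. Without the tibialis anterior library numbered 8 the difference was 0.99 (adjusted p = 0.00184). In Pax7 the same difference was 0.53 (adjusted p = 0.0742), and it passed with a pseudocount of 0.1 (1.05, adjusted p = 0.0263) and without the diaphragm library numbered 20 or the soleus ones numbered 9 or 62 (0.53, 0.64 and 0.63, adjusted p = 0.0456, 0.0326 and 0.0423). The Pax7 difference also passed with the column number as a block, as given in the closing section. For diaphragm over tibialis anterior the difference in Myf5 was -0.77 ± 0.20 (SE, adjusted p = 0.0193, 5.04% of all genes called), again with no other of the 8 genes called. The Myf5 difference did not pass without the tibialis anterior library numbered 8 (-0.61, adjusted p = 0.0673). For diaphragm over soleus 0 of 8 genes were called by limma without a block (2.52% of all genes), with 1 at an unadjusted p under 0.05. With the column number as a block Pax7 was called, as given in the closing section.

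The rise of these low genes in tibialis anterior came with higher levels of some markers of other cells, in a comparison where the median gene rose by 0.41. The summed TPM of 5 fibroblast markers was 157 to 270.5 in the non-cachectic and 309 to 645 in the cachectic group, and of 3 smooth muscle markers 31.5 to 60.3 and 64.03 to 109. The 4 endothelial markers summed to 81.2 to 111 and 103 to 212, and the 4 macrophage markers to 2.81 to 5.74 and 4.37 to 30.5. The 4 B cell markers went the other way, from 42.3 to 198 down to 4.12 to 29.1. The 2 adipocyte markers, at 3.24 to 6.57 and 2.39 to 6.35, and the 2 red cell markers, at 278 to 971 and 308 to 796, overlapped between the groups. No marker of these lists was at 0 in a whole group. Their part in the result was not tested. In soleus the fibroblast markers were at 580.1 to 772 and 354 to 744 and the macrophage markers at 12.1 to 18.3 and 12.7 to 93.3. The 4 melanocyte markers summed to 0.407 TPM or less in every library, with Tyr and Mlana at 0 in all tibialis anterior libraries. In mock diaphragm, where Myf6 rose, the fibroblast markers were at 728 to 1179 and 841 to 1527 TPM and the macrophage markers at 22.8 to 50.6 and 28.1 to 119.7 TPM in the non-cachectic and cachectic groups.

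Of the MEF2 genes, Mef2d passed in tibialis anterior. It was at 70.2, 77.5, 80.1, 84.2 and 84.3 TPM without cachexia and at 81.4, 89.0, 104, 106 and 127 TPM with it, where the lowest cachectic library overlapped the non-cachectic ones. The fold change of 0.34 ± 0.13 (SE, adjusted p = 0.0339) was below the shift of the median gene, 0.41, and it turned to -0.16 after median-ratio scaling (adjusted p = 0.154). It was also lost without any 1 of 5 libraries, the cachectic ones numbered 9 and 10 and the non-cachectic ones numbered 61, 62 and 63 (adjusted p = 0.0627, 0.0679, 0.0674, 0.0817 and 0.0633). Mef2a, at 0.20 (adjusted p = 0.0936), was lower after that scaling (-0.28, adjusted p = 0.0261) and passed without the library numbered 8 (0.15, adjusted p = 0.0473). Mef2c was at -0.23 (adjusted p = 0.214). In soleus the changes of Mef2a, Mef2c and Mef2d were 0.03, -0.03 and 0.09 with intervals within -0.31 to 0.33, and none passed.

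In mock diaphragm Mef2d was at 65.04 to 92.4 TPM (median 76.3) without and at 77.4 to 129 TPM (median 89.2) with cachexia, a change of 0.23 ± 0.09 (SE) that missed the threshold (adjusted p = 0.0531). It passed in a fit of only the 2 groups (adjusted p = 0.0242) and in the Dunn test (adjusted p = 0.0162), and without any 1 of 6 libraries, the cachectic mock ones numbered 6, 10 and 22, the non-cachectic one numbered 65 and the cachectic rFibcd1 ones numbered 3 and 11 (adjusted p from 0.0186 to 0.0462). It was 0.00 after median-ratio scaling. Mef2c was at 88.4 to 117 TPM and at 69.4 to 117.5 TPM, a change of -0.10 (adjusted p = 0.498) that passed only after that scaling (-0.33, adjusted p = 0.0234). Mef2a changed by 0.08 (adjusted p = 0.622).

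**Figure D5:**
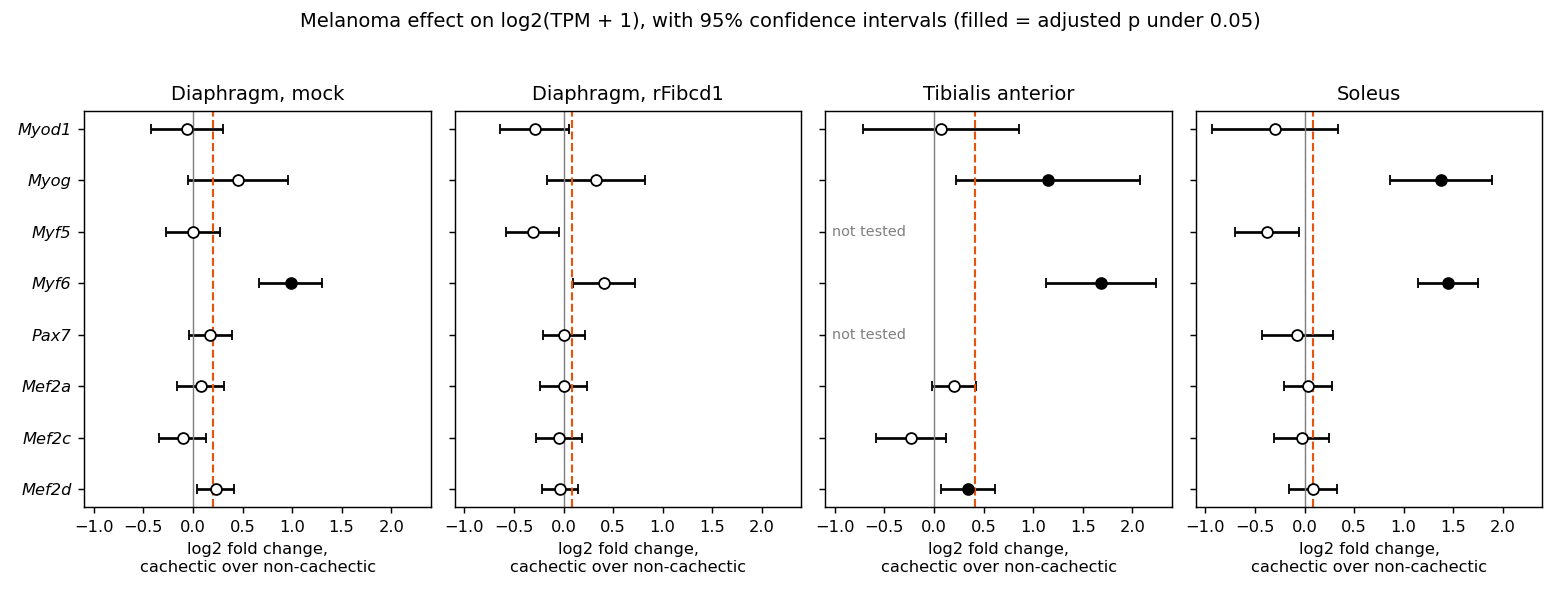
Log2 fold change of the cachectic over the non-cachectic group for the 8 genes in 4 comparisons, with 95% intervals, filled circles for an adjusted p under 0.05 and a dashed line at the median of all genes tested; Myf5 and Pax7 were under the filter in tibialis anterior. Myf6 lies to the right of the dashed line in all 4 panels, at 0.99, 0.41, 1.69 and 1.45, and Mef2d in tibialis anterior lies on its left.

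Among the genes that work with these factors, some of those of the nerve-muscle contact and of denervation were called in each muscle, and in TPM the genes called were all higher. In mock diaphragm 5 of 9 were higher and 0 lower (list median 0.55, all genes 0.20), against 30.9% of all genes called higher, with Gadd45a at 1.00 and Chrna1 at 0.64. In tibialis anterior 5 of 8 were higher and 0 lower (1.01, all genes 0.41), against 56.4% of all genes called higher there, with Sln at 2.43, Gadd45a at 1.38 and Chrnb1 at 1.04. In soleus 4 of 8 were higher and 0 lower (0.42, all genes 0.09), against 17.5%, with Ankrd1 at 2.58, Sln at 1.60 and Chrnb1 at 0.89. After median-ratio scaling the counts higher were 2, 3 and 4, with 0, 1 and 0 lower, the 1 being Chrne, the adult receptor subunit (-0.65, adjusted p = 0.0271).

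Genes of new or developing myofibers did not move as 1 group. In tibialis anterior 4 of 7 were higher and 1 lower (list median 0.42, all genes 0.41), against 56.4% of all genes called higher, with Myh8, the perinatal myosin, at 2.77 and Actc1, the cardiac actin, at -2.81. In soleus 3 of 8 were higher and 0 lower (0.37, all genes 0.09), against 17.5%, namely Mybph (3.99), Myh8 (2.90) and Runx1 (0.46). In mock diaphragm 4 of 8 were higher and 1 lower (0.61, all genes 0.20), against 30.9%, with Tnnt2 at 1.02 and Actc1 at -2.12. After median-ratio scaling the counts in the same order were 1 higher and 2 lower, 3 and 0, and 2 and 1.

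Satellite cell genes beside Pax7 were higher in 6 of 12 cases and lower in 0 in tibialis anterior (list median 0.65, all genes 0.41), against 56.4% of all genes called higher, with Itga7 at 1.39, Cdh15 (M-cadherin) at 1.11 and Notch3 at 0.68. After median-ratio scaling 3 were higher and 1 lower. In mock diaphragm 7 of 13 were higher and 1 lower (0.35, all genes 0.20), against 30.9% of all genes called higher, with Itga7 at 0.70, Chodl at 0.57 and Ncam1 at 0.54, and 1 and 1 after median-ratio scaling. In soleus 2 of 12 were higher and 1 lower (-0.05, all genes 0.09), against 25.1% of all genes called. Itga7, Ncam1 and Notch3 are also made by other cells of muscle.

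Of the partners of the helix-loop-helix factors, 1 of 10 was lower (Bhlhe41, -0.70) and 0 were higher in mock diaphragm (list median 0.12, all genes 0.20), against 33.5% of all genes called. In tibialis anterior 4 of 8 were higher and 1 lower (0.24, all genes 0.41), against 56.4% of all genes called higher, with the E proteins Tcf3 at 0.56 and Tcf12 at 0.54 and Bhlhe41, a repressor, at -1.01. After median-ratio scaling 0 were higher and 1 lower. In soleus 0 of 10 were higher and 2 lower (Bhlhe41, -0.79, and Tcf4, -0.39), with a list median of -0.31 (all genes 0.09), against 25.1% of all genes called. Bhlhe41 was thus lower in all 3 muscles, and in each after median-ratio scaling as well (-0.90, -1.45 and -0.88).

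MEF2 cofactors and repressors were higher in 5 of 11 cases in mock diaphragm and lower in 0 (list median 0.14, all genes 0.20), against 30.9% of all genes called higher, with Vgll2, a muscle coactivator, at 0.54, but 0 higher and 3 lower after median-ratio scaling. In tibialis anterior 6 of 10 were higher and 0 lower (list median 0.40, all genes 0.41), against 56.4% of all genes called higher, with Hdac7 at 0.85 and Vgll2 at 0.76, and the counts were 2 and 1 after median-ratio scaling. In soleus 1 of 12 was higher, Vgll2 at 0.85, and 4 lower (list median -0.08, all genes 0.09), against 17.5% of all genes called higher and 7.54% lower, led by Mamstr (-0.95), a MEF2 coactivator, and Dach2 (-0.72), a repressor of Myog. The 12 MEF2 target genes had 2 higher and 0 lower in mock diaphragm, 3 and 1 in tibialis anterior and 3 and 0 in soleus, where Xirp1 (1.75) and Xirp2 (1.18) were first by size, against 30.9%, 56.4% and 17.5% of all genes called higher. Their list medians were 0.15, 0.13 and 0.24, against 0.20, 0.41 and 0.09 over all genes. After median-ratio scaling they had 0 and 1, 0 and 6, and 2 and 0. Sine oculis and Eya factors had 1 higher and 1 lower of 8 in mock diaphragm, 3 and 0 of 7 in tibialis anterior and 0 of 7 called in soleus (list medians 0.18, 0.40 and -0.06), against 33.5%, 60.2% and 25.1% of all genes called.

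With rFibcd1 in both melanoma groups of the diaphragm, limma called 0 of the 8 genes between cachectic and non-cachectic mice, against 9.11% called over all genes. Myf5 and Myf6 were the 2 with an unadjusted p under 0.05, and the Dunn test called 0. Myf6 was at 65.4 to 87.8 TPM (median 75.3) without and at 70.9 to 234 TPM (median 93.5) with cachexia, and the groups overlapped. Its change was 0.41 ± 0.15 (SE, adjusted p = 0.0827), and 0.28 (adjusted p = 0.177) without the cachectic rFibcd1 library numbered 3, at 234 TPM. It passed without the one numbered 2 (0.47, adjusted p = 0.0417) and with the clock measure described below as a term (0.56, adjusted p = 0.0325). The difference between this melanoma effect and that under mock, -0.58 with a 95% interval from -1.02 to -0.13 that is not adjusted, did not pass (adjusted p = 0.543). The loss of the call under rFibcd1 is therefore not a shown difference between rFibcd1 and mock. In that interaction limma called 0 of 8 genes (0.0223% of all genes), with 1 at an unadjusted p under 0.05. In the lists, 3 of 9 acetylcholine receptor and denervation genes were higher (Ankrd1 at 1.66; 1 of 9 after median-ratio scaling), and 1 of 8 genes of new myofibers (Myl4, 0.75). Of 12 clock genes 3 were higher (Per2 at 1.32, Per3 at 0.91 and Cry2 at 0.70) and 2 lower (Arntl at -1.38 and Npas2 at -0.66), and of 13 satellite cell genes 1 was higher (Itga7, 0.42) and 1 lower (Heyl, -0.47), against the 9.11% of all genes called.

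rFibcd1 was then compared with mock within each melanoma. In cachectic mice limma called 0 of 8 genes (0.0447% of all genes), with 1 at an unadjusted p under 0.05, and the Dunn test called 0. Myog was at 10.53 to 24.95 TPM (median 12.9) under mock and at 7.34 to 68.9 TPM (median 20.8) under rFibcd1, a difference of 0.41 with a 95% interval from -0.08 to 0.90. Without the library at 68.9 TPM, numbered 1, the difference was 0.22. Myf6 was at -0.34 (95% interval from -0.65 to -0.03, adjusted p = 0.435), and Myod1 at 0.33 (95% interval from -0.02 to 0.68, adjusted p = 0.504).

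In non-cachectic mice limma also called 0 of 8 genes (0.417% of all genes), with 3 at an unadjusted p under 0.05, and the Dunn test called 0. These 3 were Myod1 (0.56 ± 0.18, SE, adjusted p = 0.19), Myog (0.53 ± 0.25, SE, adjusted p = 0.28) and Mef2a (0.31 ± 0.12, SE, adjusted p = 0.255), and all 3 passed in a fit of only the 2 groups (adjusted p = 0.013, 0.0389 and 0.0244). Myod1 was at 6.19 to 12.8 TPM (median 8.94) under mock and at 9.80 to 22.4 TPM (median 13.0) under rFibcd1, Myog at 6.23 to 14.6 TPM and 10.0 to 24.7 TPM, and Mef2a at 16.8 to 24.4 TPM and 20.5 to 31.1 TPM. The groups overlapped in each.

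Clock genes were also called in this comparison. Of 12 clock genes, 3 were higher and 4 lower (3 and 5 after median-ratio scaling), against 0.417% of all genes called, with Dbp at -2.46 and Arntl at 2.25, and these peak at opposite times of day. Myod1 is known as a clock-controlled gene in muscle. With the log2 difference of Dbp from Arntl in each library as a term, the differences of Myod1, Myog and Mef2a were 0.13, 0.09 and 0.12 (adjusted p = 1 for each). This measure ran from 2.12 to 6.22 in the non-cachectic mock libraries and from -2.47 to 1.76 in the non-cachectic rFibcd1 ones, without overlap. In these groups the measure and rFibcd1 cannot be told apart, so that nothing is concluded from the smaller differences. Times of collection are not given in the sources used here, and their part in the result was not tested. The tibialis anterior library numbered 8, with the highest Myod1 of all at 52.2 TPM, had 40.9 TPM of Arntl and 9.53 TPM of Dbp, where the other 4 cachectic libraries had 3.09 to 7.94 TPM of Arntl and 40.0 to 78.5 TPM of Dbp and the 5 non-cachectic ones 1.57 to 2.84 TPM and 71.4 to 98.1 TPM. All 5 cachectic libraries were thus above every non-cachectic one in Arntl, and the groups overlapped in Dbp.

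The genes whose log2(TPM + 1) followed each member most closely over the 59 libraries were taken from the 12828 genes that averaged 1 TPM or more. These correlations are descriptions, since all libraries share the same 8 groups and muscles. Mef2d had the closest followers, Osbp, Dcaf5 and Ubap2 (Pearson r = 0.91 for each), and Myf6 was next, with Psmd1 (a subunit of the proteasome, r = 0.90) and R3hdm1 (0.89). Mef2a was followed by Zbtb41, Lysmd3 and Trappc8 (0.89, 0.88 and 0.88), and Myog by Itga5 (an integrin, 0.88), Cct8 and Atp6ap2 (0.85 each). For Myf5 they were Bicd2, Mfsd6 and Grb10 (0.82, 0.82 and 0.81), for Pax7 Prkaca, Igdcc4 and Pgm5 (0.81, 0.80 and 0.79) and for Mef2c Ankrd28 and Car3 (0.80 and 0.79). Myod1 had the loosest, B3galnt2, Cdc42ep3 and Parp6 (0.75, 0.74 and 0.72).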

How the data were processed

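The 59 RNA-seq libraries fall into 8 groups by the labels of their samples. The authors trimmed and filtered reads, aligned them to GRCm38 (mm10) with CLC Genomics Workbench and deposited TPM per gene, whose annotation is not given in the sources used here. The labels and the methods name different library kits and sequencers. TPM keeps no depth, so no counting interval was computed, and p-values measure only the spread between these samples, which may be in part technical.

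TPM was transformed to log2(TPM + 1) and compared with limma 3.58.1 (trend, R 4.3.3, two-sided, Benjamini-Hochberg over all genes tested, called at an adjusted p under 0.05), on genes with 1 TPM or more in as many libraries as the smallest group. The fits held 39 diaphragm libraries, 10 tibialis anterior, 10 soleus, and 39 libraries of 3 muscles without rFibcd1. Alternatives were the Dunn test, which the study used, a pseudocount of 0.1, no filter, median-ratio scaling, each library left out, library state or clock measure as a term, fits of only the groups compared, and, added after seeing the data, the column number as a block. Columns carry numbers that could not be tied to labelled replicates, and "numbered" refers to these. No 2 libraries were identical. The test was checked on simulated data. SD and SE are over libraries, and intervals are 95% intervals of limma.

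The members and gene lists were chosen with earlier results of these data known. The lists were satellite cell genes, E proteins and inhibitors, MEF2 cofactors and repressors, MEF2 target genes, sine oculis and Eya factors, new myofiber genes, acetylcholine receptor and denervation genes, and clock genes. From each, at most 3 called genes of largest size were named per comparison, beside all 8 members and the 3 genes most correlated with each. A few genes that this rule names are not reported here.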

Additional observations from a re-analysis of the deposited data

Results flagged for a closer look

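In 8 of 64 sets (a gene in a group of libraries) 1 library lay far from the others of its group by Dixon's criterion, taken on TPM without a log scale. Chance alone meets it in about 1 of 20 groups of normally distributed values, which was not checked for TPM. The 64 sets share libraries, so that they are not independent. Myog reached 68.9 TPM in 1 cachectic rFibcd1 diaphragm library, next to 30.6 TPM in the next highest, and 53.4 TPM in the cachectic tibialis anterior library numbered 8, next to 10.9 TPM. That tibialis anterior library also held the highest Myf5 of its group, 3.07 TPM next to 1.48 TPM. Myf5 was at 0.61 TPM in 1 cachectic rFibcd1 diaphragm library, next to 1.84 TPM, and that library also had the lowest Mef2a, Mef2c and Mef2d of its group (12.9, 51.3 and 51.2 TPM). Myf6 reached 231 TPM in 1 cachectic mock diaphragm library, next to 160.3 TPM, and 234 TPM in 1 cachectic rFibcd1 diaphragm library, next to 123 TPM. Mef2c was at 117 TPM in 1 non-cachectic mock diaphragm library, next to 99.4 TPM, and Mef2d at 129 TPM in 1 cachectic mock diaphragm library, next to 100.05 TPM.

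For Myf5, the melanoma effect differed between muscles by a test of the difference itself, in 2 of 3 pairs of muscles. The effect was higher in tibialis anterior than in soleus by 1.15 on the log2 scale, and lower in diaphragm than in tibialis anterior by -0.77. The first held and the second did not when the tibialis anterior library numbered 8 was left out (0.99 and -0.61).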

How the results depend on the processing

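Counts of the 8 genes called stayed within 1.5 times the reported count in 489 of 514 recomputations. In mock diaphragm the count of 1 became 2 with median-ratio scaling, a fit of only the groups compared, or the Dunn test, and 0 among high-state libraries, where fewer samples entered. Under rFibcd1, 0 became 1 with the clock measure as a term, and for rFibcd1 over mock in non-cachectic mice 0 became 3 in a fit of only these groups. The melanoma effect in tibialis anterior over soleus had 2 calls in place of 1 with a pseudocount of 0.1. The cause was not tested for these. Leaving out 1 library gave counts from 1 to 2 (mock diaphragm), 0 to 1 (rFibcd1 diaphragm), 3 to 5 (diaphragm over tibialis anterior), 2 to 5 (diaphragm over soleus), 1 to 2 (effect in tibialis anterior over soleus) and 0 to 2 (effect in diaphragm over tibialis anterior). Column numbers recur in the 3 muscles. Same-numbered libraries deviated together in 28 of 30 pairs (r over 0.1; range 0.010 to 0.502), against 31 of 210 other pairs, and a library was closest to its own number in 50 of 60 cases, a hint from the data, since no label ties the numbers to a mouse. With this number as a replicate block, calls rose from 3 to 5 for diaphragm over soleus (adding Myog, -0.75, and Myf6, -0.60, adjusted p = 0.00901 and 4.6e-05), from 1 to 3 for the effect in tibialis anterior over soleus (adding Pax7, 0.53, and Mef2d, 0.26, adjusted p = 0.00794 and 0.038) and from 0 to 1 for the effect in diaphragm over soleus (Pax7, 0.50, adjusted p = 0.0416), and the block turned Mef2a to -0.12 (diaphragm over soleus), Mef2a to 0.115 (effect, diaphragm over tibialis anterior) and Mef2c to 0.13 (effect, diaphragm over soleus).

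With median-ratio scaling, mock diaphragm had Myf5 at -0.16 and Mef2a at -0.14, rFibcd1 diaphragm Pax7 at -0.051 and Mef2a at -0.073, rFibcd1 over mock in non-cachectic mice Mef2c at -0.15 and Mef2d at -0.096, and the interaction Myog at 0.013 and Mef2a at 0.071. The same scaling gave Myod1 -0.41, Mef2a -0.28 and Mef2d -0.16 in tibialis anterior, Mef2a -0.058 and Mef2d -0.0093 in soleus, and Myf6 0.40, Mef2c 0.30 and Mef2d 0.064 for tibialis anterior over soleus. For the effects it gave Myod1 -0.047, Myf6 -0.17, Mef2a -0.23 and Mef2d -0.15 (tibialis anterior over soleus), Myod1 0.15, Mef2a 0.14 and Mef2d 0.15 (diaphragm over tibialis anterior), and Mef2a -0.098 and Mef2d -0.0027 (diaphragm over soleus). With the clock term, Myf5 was -0.058 in mock diaphragm, Mef2d 0.018 under rFibcd1, Myf6 -0.055 and Mef2d -0.015 for rFibcd1 over mock in non-cachectic mice, and Myod1 0.13, Myog 0.25, Mef2a 0.080 and Mef2c -0.020 in the interaction. With the state term, Mef2a was -0.14 in mock diaphragm, Pax7 -0.0076 and Mef2a -0.075 under rFibcd1, Mef2c -0.036 for rFibcd1 over mock, and Myog 0.071 and Mef2a 0.062 in the interaction. High-state libraries alone gave Mef2a -0.093 in mock diaphragm and Mef2c 0.084 and Mef2d 0.0078 under rFibcd1. A pseudocount of 0.1 gave Myf5 -0.013 in mock diaphragm and Pax7 -0.00067 and Mef2a -0.0011 under rFibcd1.

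Leaving out 1 library turned the sign within these ranges. In mock diaphragm it was Myf5 -0.039 to 0.060. Under rFibcd1 it was Pax7 -0.043 to 0.045, Mef2a -0.037 to 0.11, Mef2c -0.096 to 0.053, Mef2d -0.090 to 0.039. In the interaction it was Myog -0.31 to 0.026 and Mef2a -0.12 to 0.030. In tibialis anterior it was Myod1 -0.27 to 0.32, and in soleus Pax7 -0.19 to 0.029, Mef2a -0.0051 to 0.12, Mef2c -0.12 to 0.055. For diaphragm over tibialis anterior it was Mef2d -0.064 to 0.011, and over soleus Mef2a -0.035 to 0.054. For the effects it was Myod1 -0.38 to 0.21 and Mef2c -0.034 to 0.20 (diaphragm over tibialis anterior), and Mef2a -0.042 to 0.085 and Mef2c -0.16 to 0.014 (diaphragm over soleus). Depth is unknown, so that the precision of Myf5 and Pax7, at a few TPM, could not be set from counts.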
